A study of Rattus norvegicus with 16 samples.

Results

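Translation initiation and elongation factors are the proteins that load messenger RNA and initiator tRNA onto the ribosome, choose the start codon, join the ribosomal subunits and move the ribosome along the message. Their transcripts were taken by symbol, as every gene whose name begins with Eif1 to Eif6, Eef1 or Eef2 and whose mean FPKM (a fragment count scaled by transcript length and library depth) was at least 1 in a brain region. The rule gave 61 genes of 16514 symbols, with 59 in hippocampus, 54 in hypothalamus and 52 in both. Eef1e1, Eef2, Eif2c1, Eif2c3, Eif2c4, Eif3e and Eif5b were members in hippocampus only, and Eef1g and Eif3d in hypothalamus only. Of these, Eif2c1, Eif2c3, Eif3e and Eif5b were measured in hypothalamus at a level under the rule. Eef1e1, Eef2 and Eif2c4 have no values at all for hypothalamus, and Eef1g and Eif3d none for hippocampus. The levels of these genes there are unknown. Where a symbol had several loci, the locus with the highest mean stood for it. The name rule also took 4 genes under the older symbols Eif2c1, Eif2c2, Eif2c3 and Eif2c4. These are the Argonaute genes, which act in small RNA silencing and are not translation factors by function.

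The rats were male Sprague Dawley animals, either without treatment (control) or given fructose for 6 weeks. Messenger RNA of the hippocampus, which serves memory, and of the hypothalamus, which governs feeding and hormone release, was measured in 16 samples, 4 per treatment and region by the labels. Fructose replicate 4 of hypothalamus has a label but no column among the values used here, so that region is compared as 4 control against 3 fructose libraries. Age, fructose dose and route are not given in the sources used here. The labels do not say that samples are separate rats, so p-values measure the spread between these samples, which may be technical.

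Initiation begins when eIF2, loaded with GTP and initiator tRNA, joins the small ribosomal subunit together with eIF1, eIF1A, eIF3 and eIF5. The eIF4F complex then brings the capped message: eIF4E binds the cap, eIF4G is the scaffold and eIF4A is the helicase. eIF5B joins the large subunit, after which eEF1 delivers each aminoacyl-tRNA and eEF2 moves the ribosome forward. Neurons are known for controlling these steps closely, through kinases that phosphorylate eIF2 alpha and slow its exchange factor eIF2B, through 4E-BP proteins that sequester eIF4E under the control of mTOR, and through the kinase of eEF2. Many transcripts of the translation machinery are also known for a pyrimidine tract at their very start, through which mTOR regulates their translation.

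The starts of the transcripts are shown for 3 members the results turn on and, as examples, for 4 of the 7 members with a long pyrimidine run, among them both eEF1 transcripts that have one. RefSeq (build GRCr8) holds a start for 55 of the 61 genes. Each window covers the 10 bases before and the first 20 bases after an annotated start, on the strand of the gene, 5′ to 3′, and capitals mark a run of at least 8 bases that are each C or T.
Eef1b2, chr9:72074081-72074110, plus strand: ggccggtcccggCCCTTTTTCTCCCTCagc
Eef1a1, chr8:88225050-88225079, minus strand: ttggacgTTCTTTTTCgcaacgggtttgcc
Eif2s3x, chrX:62933680-62933709, minus strand: cagccgagcaTTTTCCTTTTCTCTCTgagc
Eif3f, chr1:172369052-172369081, plus strand: cccttccgttctagCCTCTCTCTTTCTCgg
Eif5b, chr9:47718696-47718725, plus strand: tgtgccctgtcccagtgcgcgggtctgtgg
Eif3c, chr1:190583048-190583077, minus strand: tcgggcggatctcggctttcggggggatct
Eif4ebp2, chr20:29942903-29942932, minus strand: cggtagtcatcgttgccgctgctgccgctg
Such a run was found in 7 members, which are Eef1a1, Eef1b2, Eif2a, Eif2s3x, Eif3f, Eif3m and Eif4h. The run could lie anywhere in the window, so it need not be at the very start of the transcript. It began at position -8 from the start in Eif4h and at position 6 in Eif3m. That is 12.7% of the matched members, beside 10.8% of all 33469 start windows in RefSeq. The run length was set with these windows already seen. A match is a description of the letters and not a mapped site.

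Summed FPKM per library ranged from 353703 to 402099 (hippocampus) and from 435105 to 492778 (hypothalamus). The files hold no read counts, so the depth is unknown. The libraries numbered replicate 1 in both groups stood apart in each region. Their mean correlation with the other libraries of their group was 0.866 and 0.873 in hippocampus, where the other libraries had 0.906 to 0.94, and 0.895 and 0.901 in hypothalamus, where the others had 0.935 to 0.952. Results below are therefore also given without these libraries where that moves them. Markers of the dissected regions matched the labels: 7 markers of hippocampal neurons, of which 6 were in the hippocampus table, summed to 411 to 578 FPKM in hippocampus and 82.6 to 161 in hypothalamus, and 12 markers of hypothalamic neurons to 9.61 to 36.8 and 3895 to 9648.

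Fructose samples differed little from control in these transcripts, as the plot of fold changes by factor class shows. On the log2(FPKM + 1) scale, which understates the change of low genes, 22 members had a positive and 37 a negative difference in hippocampus (fructose minus control). The median was -0.02 beside -0.0038 for all loci tested, and 37.3% of the members were positive beside 48.6% of all loci. In hypothalamus 29 were positive and 25 negative, with a median of 0.0075 beside 0.0065 for all loci, and 53.7% were positive beside 51.5%. Leaving out fructose replicate 1 turned this balance to 17 positive and 37 negative (median -0.07). Blocking on the replicate number gave 24 and 30. Control replicate 4 has no fructose library of its number, so the block takes it out of the difference. Leaving out that library without a block also gave 24 and 30. Scaling to equal totals gave 40 positive and 14 negative, with 66.4% of all loci positive. In hippocampus the balance was 30 positive and 29 negative without control replicate 2. The median size of the difference, whatever its sign, was 0.057 in hippocampus (all loci 0.08) and 0.069 in hypothalamus (all loci 0.105).

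With limma and Benjamini-Hochberg adjustment over all loci at 0.05, 0 of the 59 hippocampus members passed, as did 0% of the 11385 loci tested there. In hypothalamus 0 of 54 members passed, beside 0.0087% of 11498 loci, which is 1 locus. An unadjusted p under 0.05 was found for 1 member in each region: Eif5b in hippocampus (1.69% of members, 0.808% of all loci) and Eif3c in hypothalamus (1.85% of members, 3.14% of all loci). Eif5b passed the level rule through its control libraries alone, so it had to differ, and its count is a description only. Groups that did not overlap were found for Eif5b in hippocampus, lower in fructose (0.413% of all loci were lower without overlap), and for Eif2c2 in hypothalamus, higher in fructose (1.75% of all loci). The difference of the fructose effect between the regions, tested as an interaction over 9931 symbols, passed for 0 of the 52 shared members and for 0% of symbols. Its unadjusted p was under 0.05 for Eif3c alone among the members, and for 2.31% of all symbols.

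**Figure D1:**
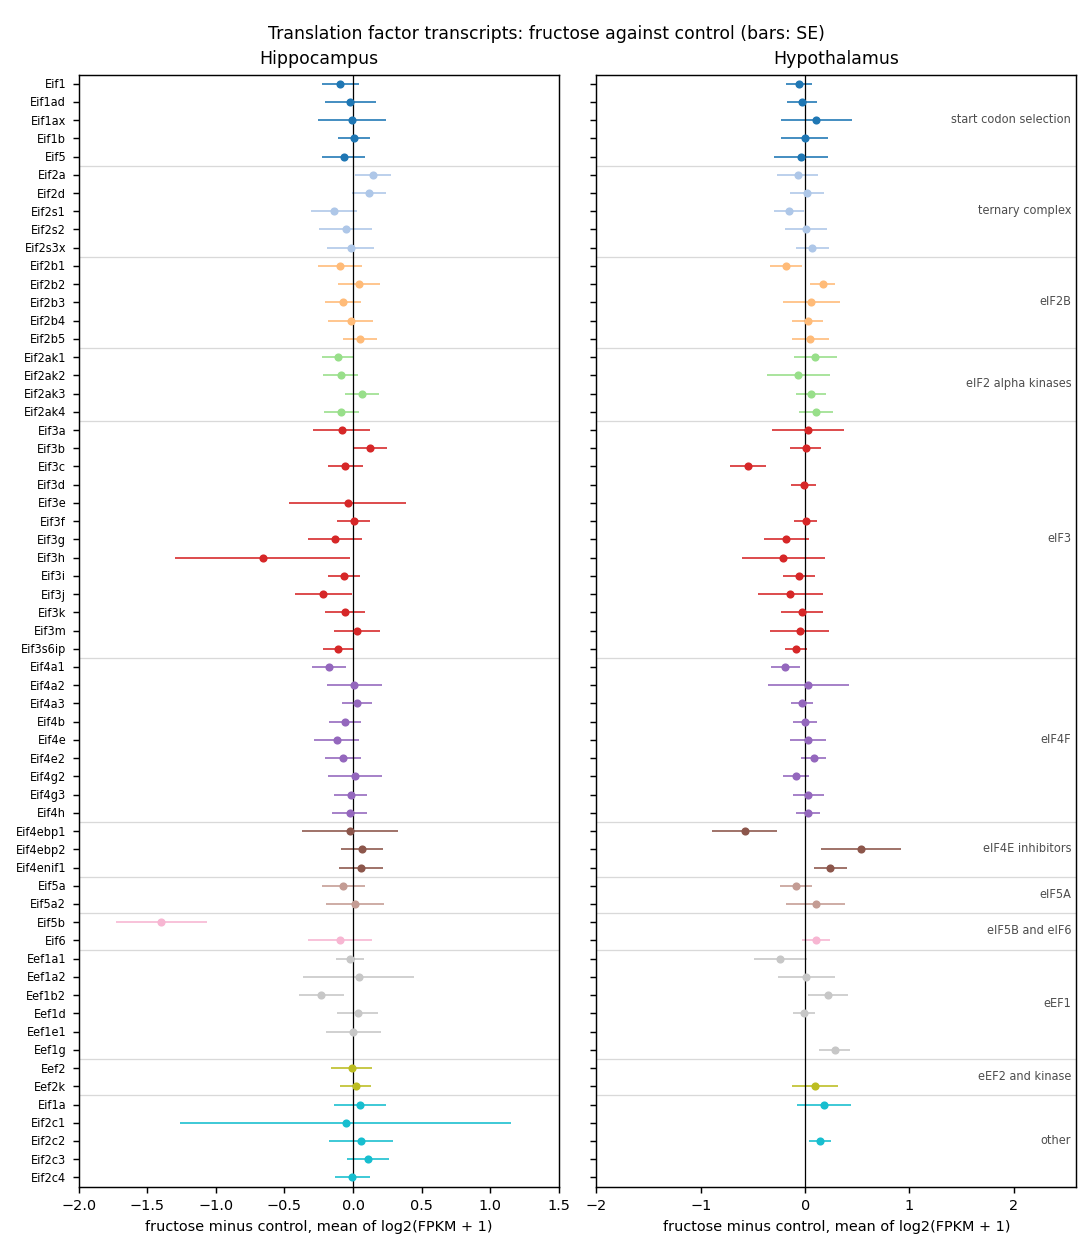
Difference of fructose from control in the mean of log2(FPKM + 1) for each member (points, with the SE of the limma fit as bars), in hippocampus and hypothalamus, ordered and coloured by factor class. Most points lie within 0.3 of 0, and the exceptions are Eif5b and Eif3h in hippocampus and Eif3c, Eif4ebp1 and Eif4ebp2 in hypothalamus.

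Subunit joining is the step of eIF5B, a GTPase that brings the large subunit to the start codon. Eif5b was at 1.20, 5.67, 1.38 and 1.81 FPKM in the control hippocampus libraries (replicates 1 to 4) and at 0.190, 0.130, 0.183 and 0.283 FPKM in the fructose libraries. Every fructose library lay under every control library, and control replicate 2 was far above the other controls. The means were 2.52 ± 2.12 and 0.196 ± 0.0636 FPKM (SD, n = 4 each).

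The Eif5b difference was -1.40 ± 0.33 (SE) on the log2(FPKM + 1) scale, with a limma adjusted p = 0.9999. The exact 2-sided permutation test gave p = 0.0286, the smallest that 4 against 4 samples allow. With a pseudocount of 0.1 the difference was -2.88, and without control replicate 2 it was -1.04. A stricter filter, a mean FPKM of at least 5, left Eif5b out. The low level of Eif5b after fructose was known from an earlier look at these data, so these values and tests describe it and support nothing further. In tissue RNA, fewer cells of a type and less RNA per cell cannot be told apart.

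Eif5b was also lower in fructose in hypothalamus, at a level under the rule. It was at 0.212, 0.269, 0.243 and 0.0751 FPKM in control libraries, listed at 0 in fructose replicates 1 and 3, and at 0.0116 FPKM in fructose replicate 2. The groups did not overlap, which holds in this direction for 1.82% of the 14725 loci without a filter. That fit gave -0.25 ± 0.06 for Eif5b (limma adjusted p = 0.9999). These values are near the floor of the measurement, and RefSeq lists 2 like-named copies, Eif5b-ps1 and Eif5bl, among which reads could be split.

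Eif6, which keeps the large subunit apart until it is mature, averaged 55.1 ± 10.8 FPKM in control hippocampus and 52.5 ± 14.7 FPKM after fructose (n = 4 each). In hypothalamus it was at 72.0 ± 8.34 FPKM (n = 4) and 77.4 ± 7.58 FPKM (n = 3). Its differences were -0.09 ± 0.23 and 0.11 ± 0.14, both smaller than their SE.

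The eIF3 complex is the large scaffold on the small subunit that holds the other initiation factors. Of its 12 members in each region, 3 had a positive and 9 a negative difference in hippocampus (median -0.06), and again 3 and 9 in hypothalamus (median -0.05). Eif3c, a core subunit that contacts eIF1 and eIF5, was the most abundant eIF3 transcript in hypothalamus. It was at 154, 229.9, 214 and 199.9 FPKM in control and at 157, 126 and 123 FPKM in fructose libraries.

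Eif3c values of fructose replicates 2 and 3 lay below all 4 controls, whereas the replicate 1 libraries of the 2 groups were nearly equal and made the groups overlap. The means were 199 ± 32.9 FPKM (n = 4) and 135 ± 18.6 FPKM (n = 3), a difference of -0.55 ± 0.17 (limma adjusted p = 0.9998). The exact permutation test gave p = 0.0857. Without both replicate 1 libraries the difference was -0.78 (limma adjusted p = 0.233), and without fructose replicate 2 or 3, where its unadjusted limma p was no longer under 0.05, it was still -0.50 and -0.48. In hippocampus Eif3c was at 72.8 ± 10.1 and 69.8 ± 5.98 FPKM, a difference of -0.06 ± 0.13. The test of the difference between the regions gave -0.49 ± 0.22 for Eif3c (limma adjusted p = 0.9999).

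The other eIF3 subunits spread widely among themselves. In hippocampus the class ran from Eif3e at a mean of 1.56 FPKM to Eif3k at 113 FPKM, and 2 of its members were unsteady from library to library. Eif3h was at 6.92, 0.616, 7.68 and 4.29 FPKM in control and at 0.747, 1.06, 6.97 and 2.30 FPKM in fructose libraries, so that high and low libraries occurred in both groups (-0.66 ± 0.64, exact permutation p = 0.429). Eif3e was at 0.448, 1.41, 1.61 and 2.71 FPKM in control and at 0.0562, 2.26, 1.49 and 2.53 FPKM in fructose libraries. These values, lowest in replicate 1 of each group, are of the higher-mean locus only. A second Eif3e locus was highest in replicate 1 of each group, so reads may have been divided between the loci. Eif3j, a loosely attached subunit, was at 5.33 ± 1.81 and 4.35 ± 0.897 FPKM (-0.22 ± 0.21). Eif3b, a scaffold subunit, was at 49.7 ± 7.0 and 54.0 ± 1.86 FPKM (0.13 ± 0.12).

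The inhibitors of eIF4E held the other large differences in hypothalamus. The 4E-BP proteins compete with eIF4G for eIF4E until mTOR phosphorylates them, and the transcripts of 2 of them differed in opposite directions. Eif4ebp1 was at 12.9, 14.2, 15.3 and 25.9 FPKM in control and at 7.68, 9.24 and 16.9 FPKM in fructose libraries. Fructose replicates 1 and 2 lay below all controls, and replicate 3 lay above 3 of them.

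The Eif4ebp1 difference was -0.58 ± 0.31 (limma adjusted p = 0.9998, exact permutation p = 0.229). It was -0.37 without fructose replicate 1 or control replicate 4 and -0.89 without fructose replicate 3. Eif4ebp2, the form known to predominate in brain, was at 9.16, 17.0, 15.3 and 14.0 FPKM in control and at 9.85, 30.9 and 26.2 FPKM in fructose libraries. Replicate 1 was low in both groups, and the other fructose libraries stood above all controls.

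The Eif4ebp2 difference was 0.54 ± 0.39 (limma adjusted p = 0.9998, exact permutation p = 0.229). With the replicate number as a block, which takes out control replicate 4, it was 0.55 (limma adjusted p = 0.584). Without both replicate 1 libraries it was 0.84 (limma adjusted p = 0.261). Under these settings 6.6% and 9.37% of all loci had an unadjusted p under 0.05, against 3.14% in the fit with groups alone. Eif4ebp2 was among them in both, and the members under 0.05 went from 1 to 2 (Eif3c and Eif4ebp2) with the block and to 4 (also Eif4enif1 and Eif3i) without the replicate 1 libraries. Leaving out a fructose library gave Eif4ebp2 differences of 1.02, 0.24 and 0.35 (replicates 1, 2 and 3 in turn), whereas leaving out the first control gave 0.36. Eif4enif1, the transporter that carries eIF4E into the nucleus, was at 5.99 ± 0.744 and 7.30 ± 1.32 FPKM (0.24 ± 0.16, exact permutation p = 0.171). The Eif4enif1 difference was 0.35 without both replicate 1 libraries and 0.38 without fructose replicate 1, with an unadjusted limma p under 0.05 in each.

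In hippocampus the same inhibitors showed no such pattern in their values. Eif4ebp1 was at 7.82 ± 1.95 and 8.34 ± 4.05 FPKM, and Eif4ebp2 at 13.2 ± 2.64 and 13.7 ± 0.974 FPKM, with differences of -0.02 ± 0.35 and 0.06 ± 0.15. The difference between the regions did not pass for Eif4ebp1 (-0.56 ± 0.49) or Eif4ebp2 (0.47 ± 0.41), each with a limma adjusted p = 0.9999. A difference between the regions in these effects is therefore not shown.

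**Figure D2:**
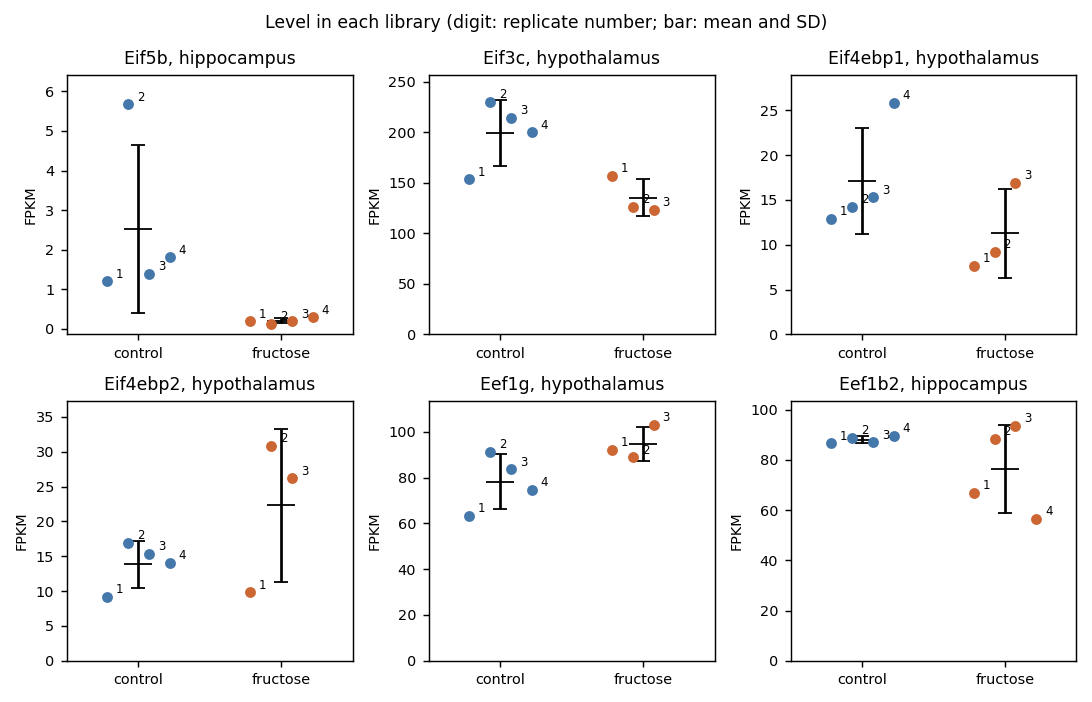
FPKM of 6 members in each library (points, with replicate numbers), by group, with the mean and SD as bars. The 4 fructose libraries of Eif5b lie between 0.130 and 0.283 FPKM, under all controls, whereas the groups overlap for Eif3c, Eif4ebp1, Eif4ebp2, Eef1g and Eef1b2.

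The 9 transcripts put in the class of cap binding, scaffold and helicase lay close to control in both regions. Their differences were between -0.18 and 0.03 in hippocampus and between -0.19 and 0.08 in hypothalamus. The scaffold gene Eif4g1 has no values in either region, so its level is unknown. Eif4a1, the general eIF4A helicase, had the most negative difference of the class in both. In hippocampus it was at 51.5, 61.2, 61.2 and 57.2 FPKM in control and at 54.2, 53.8, 55.8 and 41.2 FPKM in fructose libraries (-0.18 ± 0.13, exact permutation p = 0.171). In hypothalamus Eif4a1 was at 53.3 ± 6.75 and 46.4 ± 3.72 FPKM (-0.19 ± 0.14, exact permutation p = 0.171). The groups overlapped in both regions.

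Eif4a2, the helicase form abundant in brain, was among the most abundant members in both regions and moved with the replicate number. In hippocampus it was at 387, 495, 461 and 615 FPKM in control and at 394, 465, 458 and 661 FPKM in fructose libraries, lowest in replicate 1 and highest in replicate 4 of each group. In hypothalamus it was at 356, 204, 205 and 165 FPKM in control and at 415, 184 and 154 FPKM in fructose libraries, highest in replicate 1. Its mean over all hypothalamus libraries, 240.3 FPKM, was close to the 239.5 of Eif1 and the 226 of Eif5a. The control mean of Eif4a2, 232 FPKM, lay below the 244 of Eif1, although Eif4a2 was higher in control replicate 1 (356 against 236 FPKM). The fructose differences of Eif4a2 were 0.01 ± 0.20 and 0.03 ± 0.39. Eif4e, the cap-binding protein itself, was at 22.5 ± 3.21 and 20.8 ± 3.72 FPKM in hippocampus and at 47.7 ± 3.21 and 49.6 ± 13.0 FPKM in hypothalamus, differing by less than the spread between libraries.

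The eIF2 step is the main point at which stress slows initiation. Its alpha subunit Eif2s1, which the stress kinases phosphorylate, was at 9.39 ± 0.950 and 8.59 ± 2.09 FPKM in hippocampus (-0.14 ± 0.17) and at 34.8 ± 4.73 and 31.0 ± 3.51 FPKM in hypothalamus (-0.16 ± 0.14). The 2 tables were normalised separately, so the levels of the 2 regions are not set against each other. Eif2s2, the beta subunit and the most abundant of this class, differed by -0.05 ± 0.19 and 0.01 ± 0.20. Eif2a and Eif2d, which can deliver initiator tRNA without eIF2, had the largest positive differences of the class in hippocampus (0.15 ± 0.13 and 0.12 ± 0.12).

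All 4 kinases of eIF2 alpha were measured in both regions. Eif2ak1 (HRI, known as the heme-sensing kinase) was the most abundant, at 28.5, 34.1, 28.9 and 27.3 FPKM in control and at 23.7, 27.3, 31.3 and 27.8 FPKM in fructose hippocampus (-0.11 ± 0.12). The others were Eif2ak2 (PKR, activated by double-stranded RNA), Eif2ak3 (PERK, of the endoplasmic reticulum) and Eif2ak4 (GCN2, activated by uncharged tRNA). Their differences lay between -0.09 and 0.07 in hippocampus, and those of the 4 kinases between -0.07 and 0.10 in hypothalamus. Among the kinases the smallest exact permutation p was 0.371 in hippocampus and 0.571 in hypothalamus.

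The 5 subunits of eIF2B, the exchange factor that recharges eIF2, differed by -0.09 to 0.05 in hippocampus and by -0.18 to 0.17 in hypothalamus. In hypothalamus Eif2b1, the regulatory alpha subunit, was at 18.9 ± 3.13 and 16.4 ± 1.11 FPKM (-0.18 ± 0.15). Eif2b2, the beta subunit, was at 29.4, 34.6, 27.9 and 27.7 FPKM in control and at 34.1, 32.6 and 34.1 FPKM in fructose libraries (0.17 ± 0.12, exact permutation p = 0.143), with 1 control above all fructose libraries. Eif2b5, the catalytic epsilon subunit, differed by 0.05 in each region.

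Targets of this kinase pathway were read from a list of 20 genes of the ATF4 programme, the transcription response that phosphorylated eIF2 alpha is known to start. Of these, 18 were tested in hippocampus (9 positive, 9 negative, median -0.0037) and 19 in hypothalamus (9 positive, 10 negative, median -0.0085). In both regions 0 passed, and 0 had an unadjusted limma p under 0.05. Atf4 itself has no values in hippocampus, and in hypothalamus it differed by -0.17 ± 0.17. Mthfd2, an enzyme of mitochondrial folate metabolism, had the smallest p in both, at 1.48 ± 0.623 and 0.986 ± 0.189 FPKM in hippocampus (-0.29 ± 0.20) and 3.01 ± 0.644 and 2.06 ± 0.603 FPKM in hypothalamus (-0.39 ± 0.19, limma adjusted p = 0.9998). Next came the serine and glycine enzymes Shmt2 (-0.15 ± 0.13) and Phgdh (-0.22 ± 0.21) in hippocampus. In hypothalamus they were Ddit4, an mTOR inhibitor (-0.27 ± 0.16), and the serine synthesis enzyme Psat1 (0.20 ± 0.12).

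Start codon selection is the work of eIF1, eIF1A and eIF5. The 5 transcripts put in this class by symbol were Eif1, Eif1b, Eif1ax, Eif1ad and Eif5. A symbol alone does not show that the product acts in this step. They differed by -0.09 to 0.01 in hippocampus and by -0.06 to 0.11 in hypothalamus. Eif1b, an eIF1 paralogue, was the most abundant of them in hippocampus at 157 ± 11.7 and 159 ± 18.0 FPKM, and Eif1 in hypothalamus at 244 ± 23.2 and 234 ± 22.1 FPKM. Eif1a, listed under a symbol of its own and not counted among the 5, averaged 15.9 ± 3.93 FPKM in control hippocampus and 16.2 ± 1.98 FPKM after fructose (0.05 ± 0.19). In hypothalamus Eif1a was at 14.0 ± 3.93 and 16.05 ± 4.88 FPKM (0.18 ± 0.26). Eif5a, which helps the ribosome past stretches that are hard to translate and carries the amino acid hypusine, was at 263 ± 39.1 and 250.3 ± 38.2 FPKM in hippocampus and at 233 ± 37.2 and 217 ± 17.2 FPKM in hypothalamus. The differences of Eif5a were -0.07 ± 0.16 and -0.09 ± 0.15.

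Transcripts whose symbols begin with Eef1 or Eef2 differed by -0.23 to 0.04 in hippocampus and by -0.24 to 0.28 in hypothalamus. Eef1b2, a subunit of the eEF1B complex that recharges eEF1A with GTP, was at 86.5, 88.7, 87.0 and 89.5 FPKM in control and at 66.9, 88.5, 93.6 and 56.5 FPKM in fructose hippocampus. The controls lay close together, and the fructose libraries lay on both sides of them, with replicates 1 and 4 low. The difference was -0.23 ± 0.16 in hippocampus (exact permutation p = 0.371) and 0.22 ± 0.19 in hypothalamus, and the test of the difference between the regions gave 0.45 ± 0.26 (limma adjusted p = 0.9999).

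Eef1g, the gamma subunit of the same complex, was at 63.2, 91.2, 83.7 and 74.8 FPKM in control and at 92.1, 88.8 and 103 FPKM in fructose hypothalamus. Of the 3 fructose libraries, 2 lay above all controls. The Eef1g difference was 0.28 ± 0.15 (limma adjusted p = 0.9998, exact permutation p = 0.114), and RefSeq lists 16 like-named copies of it. Without control replicate 1 the Eef1g difference was 0.19.

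Eef1a1, the general form of eEF1A, was at 121 ± 10.9 and 118 ± 4.76 FPKM in hippocampus. In hypothalamus it was at 111, 53.1, 59.8 and 62.3 FPKM in control and at 59.3, 64.8 and 50.5 FPKM in fructose libraries, with control replicate 1 far above the rest (-0.24 ± 0.25). Eef1a2, the form of neurons and muscle, was the most abundant member in hypothalamus, where Eef2 has no values, at 416 ± 112 and 416 ± 100 FPKM. In hippocampus it was at 491, 339, 351 and 148 FPKM in control and at 400.4, 334, 415 and 175 FPKM in fructose libraries, lowest in replicate 4 of each group.

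Eef2, the translocase, was the most abundant member in hippocampus, at 549, 543, 516 and 387 FPKM in control and at 507, 489, 551 and 423 FPKM in fructose libraries (-0.01 ± 0.15). Eif4a2 followed at a mean of 492 FPKM and Eef1a2 at 332 FPKM, and Eef2 and Eif4a2 did not differ beyond their spread. Eef2k, the kinase that inactivates eEF2, was at 13.7 ± 0.644 and 14.0 ± 1.92 FPKM in hippocampus (0.02 ± 0.11) and at 8.70 ± 1.55 and 9.47 ± 2.73 FPKM in hypothalamus (0.09 ± 0.22).

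Of the Argonaute genes, Eif2c2 was the member without overlap in hypothalamus. It was at 12.4, 12.3, 13.1 and 12.6 FPKM in control and at 13.9, 14.7 and 13.5 FPKM in fructose libraries. All fructose libraries lay above the controls by a small margin. The difference was 0.14 ± 0.10 (limma adjusted p = 0.9998), and the exact permutation test gave p = 0.0286, the smallest that 4 against 3 samples allow. Eif2c2 is described because its groups did not overlap, which all but sets this permutation p, so that p adds nothing further. Such non-overlap, higher in fructose, was found for 1.85% of the members and 1.75% of all loci. In hippocampus Eif2c2 was at 4.87 ± 1.84 and 4.91 ± 0.854 FPKM, with overlapping groups. Eif2c3 had a mean of 1.44 FPKM in hippocampus, just inside the level rule like Eif5b (1.36 FPKM), and 0.969 FPKM in hypothalamus, just outside it.

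Libraries of each replicate number stood further from the others than fructose from control, most of all number 1, and number 4 in hippocampus. The heat map shows the deviations. The median size of the member difference between replicate 1 and the other libraries was 0.177 in hippocampus (all loci 0.218) and 0.30 in hypothalamus (all loci 0.315). Between fructose and control it was 0.057 (all loci 0.08) and 0.069 (all loci 0.105). The replicate contrast gave 0.114, 0.134 and 0.204 for replicates 2 to 4 of hippocampus, and 0.088 and 0.155 for replicates 2 and 3 of hypothalamus. These contrasts set 1 library of each group against the rest and so average fewer libraries than the fructose contrast. Replicate 1 was the highest or lowest library in both groups for 37.3% of the members in hippocampus (33.6% of all loci), with 3 highest and 19 lowest. In hypothalamus this held for 68.5% of the members (57.9% of all loci), with 25 highest and 12 lowest, such as Eif3a, Eif1ax and Eif4a2 on the high side. What the replicate numbers stand for is not given in the sources used here.

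**Figure D3:**
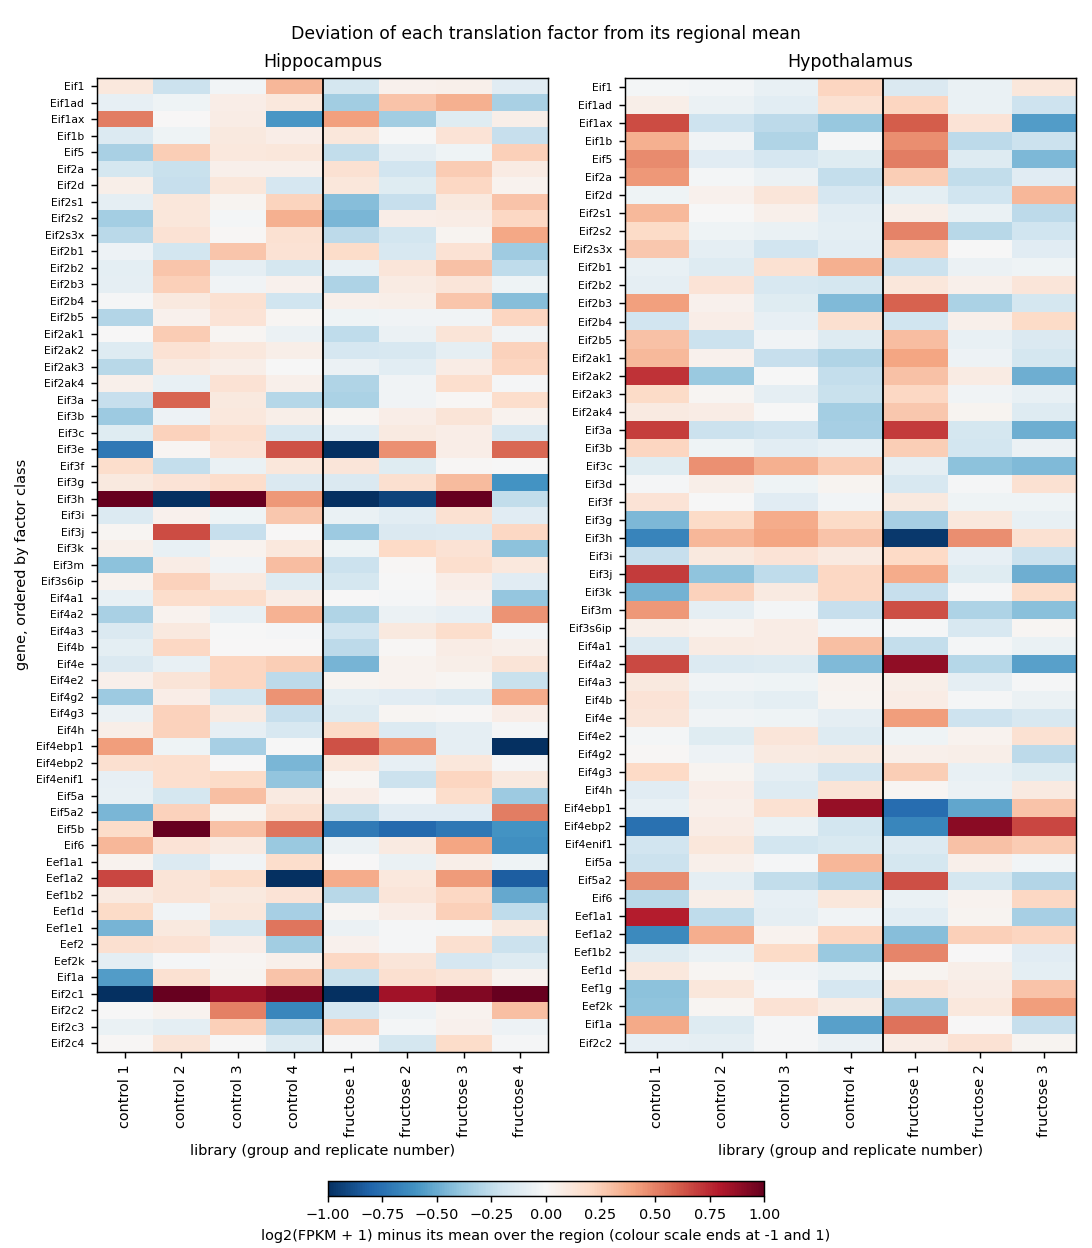
Deviation of each member's log2(FPKM + 1) from its mean over the libraries of the region, for each library (columns, control left of the line and fructose right of it) and gene (rows, by factor class). In hypothalamus the columns of control replicate 1 and fructose replicate 1 share their colours in most rows, and in hippocampus the Eif5b row is red or pale in control and blue in fructose.

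Several symbols had more than 1 locus, 7 of them members in hippocampus and 4 in hypothalamus. For Eif4h, Eif1ax, Eif2c1 and Eif4b the replicate 1 libraries differed from the others in that 1 locus was low or at 0. The locus with the higher mean stayed the higher one in every library for Eif4h and Eif4b. Eif3e, described above, also had a second locus in hippocampus. That locus was highest in replicate 1 of each group, where the locus that stands for Eif3e was lowest. The second locus of Eif4h, a helicase cofactor, was listed at 0 in replicate 1 of both hippocampus groups, at 30.9, 33.2 and 51.6 FPKM in control replicates 2 to 4 and at 37.6, 55.4 and 56.7 FPKM in fructose replicates 2 to 4. The second locus of Eif1ax was likewise listed at 0 in both replicate 1 libraries and lay between 13.9 and 20.9 FPKM in the others.

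For Eif2c1 the locus that stands for the symbol was at 0.381 and 0.435 FPKM in replicate 1 and between 19.1 and 27.1 FPKM in the other hippocampus libraries, whereas its second locus was highest in replicate 1. In hypothalamus the second locus of Eif4b, a helicase cofactor, was at 4.68 and 1.70 FPKM in replicate 1 and between 19.8 and 40.8 FPKM elsewhere. Reads may have been divided among such loci, which leaves the levels of these symbols uncertain. Like-named copies in RefSeq, 127 in all for 32 of the 61 genes, make further values uncertain, with 22 for Eef1a1, 11 for Eif5, 10 for Eif4e and 9 each for Eif1 and Eif4a1.

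**Figure D4:**
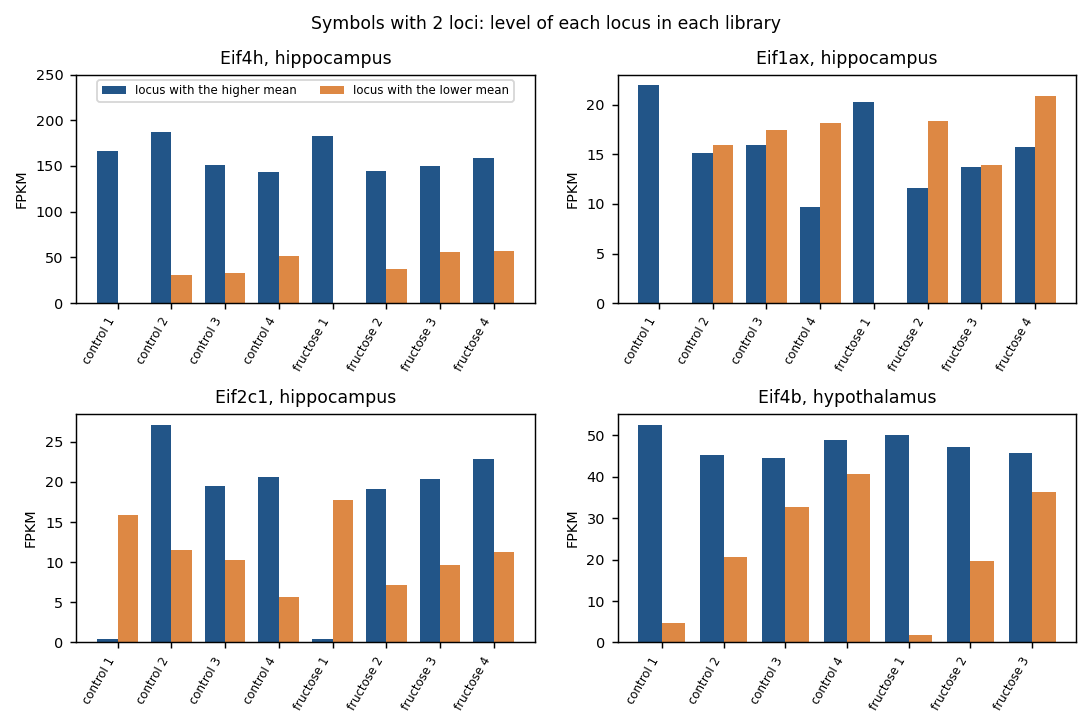
FPKM of both loci of 4 symbols with 2 loci in each library of the region named in the panel title. The locus with the lower mean has no bar in the replicate 1 libraries for Eif4h and Eif1ax and a bar under 5 FPKM for Eif4b, and for Eif2c1 the higher-mean locus is near 0 there.

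Other genes of the pathway were read from a list of 37 partners, among them mTOR signalling, poly(A)-binding proteins, release factors and mitochondrial translation factors. In hippocampus 30 were tested, with 7 positive and 23 negative differences and a median of -0.05, where 48.6% of all loci were positive and their median was -0.0038. In hypothalamus 29 were tested, with 16 positive and 13 negative differences and a median of 0.0055, where 51.5% of all loci were positive and their median was 0.0065. In both regions 0 passed in either direction, and 0 had an unadjusted limma p under 0.05, beside 0.808% of all loci in hippocampus and 3.14% in hypothalamus. The smallest p in hippocampus belonged to Mknk2, a kinase of eIF4E (0.17 ± 0.11), Sbds, which acts with eIF6 in releasing the large subunit (-0.19 ± 0.14), and Pabpc4, a poly(A)-binding protein (-0.17 ± 0.13). In hypothalamus they were Mcts1, a reinitiation factor (-0.39 ± 0.28), Tsc1, a brake on mTOR (0.16 ± 0.12), and Pabpc1, the main poly(A)-binding protein (-0.30 ± 0.23). Tsc1 and the mitochondrial factor Gfm2, named after its values were seen, were the 2 partners whose hypothalamus groups did not overlap, beside 3.33% of all loci.

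Marker lists of other cells were summed in each library. In hypothalamus 5 ependyma markers summed to 29.8 to 54.6 FPKM in control and 60.8 to 74.5 FPKM in fructose libraries, and 12 meningeal fibroblast markers to 234 to 438 and 60.3 to 248 FPKM. In hippocampus the meningeal markers summed to 50.9 to 470.1 FPKM in control and 194 to 705 FPKM in fructose libraries. The ependyma markers overlapped there, at 55.5 to 72.8 FPKM in control and 51.3 to 71.2 FPKM in fructose libraries. The lists of neurons, astrocytes, oligodendrocytes, microglia and endothelium overlapped between the groups in both regions. So did those of choroid plexus and blood. Choroid plexus markers spread widely in hippocampus, at 1186 to 7553 FPKM in control and 1488 to 5784 FPKM in fructose libraries. In hypothalamus they summed to 40.7 to 117 and 36.2 to 45.4 FPKM. Of the meningeal list, Col1a2 was listed at 0 in both regions. The part of these cells in the values of Eif5b, Eif3c, Eif4ebp1 and Eif4ebp2 was not tested.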

How the data were processed

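RNA was measured in 15 libraries of rat hippocampus and hypothalamus. Libraries of poly-A selected RNA were run on a HiSeq 2000 and demultiplexed with CASAVA 1.8.2, per the labels' protocols. The authors deposited FPKM per locus with a status flag, 1 table per region. TopHat, Bowtie, Cufflinks, Cuffdiff, TopHat2, Bowtie2 and build rn5 are named, without versions, per the submitters' processing notes. The hypothalamus was designed as 4 against 4 libraries, but fructose replicate 4 was not analysed here. No read counts are in the files used here, so depth is unknown and no count model was fitted.

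Tests covered the 11385 and 11498 loci whose mean FPKM was 1 or more. Values were taken as log2(FPKM + 1) and fitted in limma 3.58.1 (R 4.3.3) with group means and a prior variance that follows the mean. A call needed a Benjamini-Hochberg adjusted p under 0.05. The difference between regions was an interaction over symbols tested in both tables, at the highest-mean locus. Single members were also put to an exact 2-sided permutation test over samples. The fit was tested on simulated data. Figures used matplotlib 3.10.9 in Python 3.11.15. Printed errors are SD for FPKM and SE for log2 differences.

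Same-numbered control and fructose libraries deviated together across loci (in number order, r = 0.892, 0.208, 0.481 and 0.41 in hippocampus, 0.848, 0.488 and 0.456 in hypothalamus). A fit with the number, which comes from the labels, as a block was therefore made as an alternative. In hypothalamus this block takes control replicate 4, which has no fructose library of its number, out of the difference. The main fits and the permutation tests used no pairing. Much of the shared deviation comes from replicate 1: without it r was -0.226, 0.404 and 0.0882, and 0.269 and 0.0364.

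Named members are the 4 with the smallest p per direction and region, the 4 with the smallest p of the region difference, those without overlap, the most abundant of each class and a set of regulators, and for each partner list the 3 with the smallest p. Members described for how they vary (Eif1ax, Eif3a, Eif3e, Eif3h, Eif4b, Eif4h) were chosen after their values were seen. The members and lists were chosen with earlier results of these data known. Alternatives were the pseudocount, the filter, summed loci, 2 scalings, the block, the replicate 1 libraries, status flags, the variance trend and each library left out. Leaving out both replicate 4 libraries of hippocampus was added after seeing the data.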

Additional observations from a re-analysis of the deposited data

Results flagged for a closer look

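For the named members only, the highest or lowest library was compared with the rest of its group on log2(FPKM + 1). This covered 102 groups of 4 libraries. Of these, 6 (5.88%) held a library far from the others by Dixon's criterion, where chance gives about 1 in 20. The members described above for how they vary, such as Eif3h and Eif3e, were not checked. In fructose hippocampus, Eif2b5 was at 15.1 FPKM in replicate 4 and at 12.5 to 12.6 in the others. Eif4a1 was at 41.2 FPKM in fructose replicate 4, with 53.8 to 55.8 in the others. Eif4e was at 15.3 FPKM in fructose replicate 1, with 22.0 to 23.5 in the others. Eif2c1, split over 2 loci, was at 0.381 FPKM in control replicate 1 (others 19.5 to 27.1) and at 0.435 FPKM in fructose replicate 1 (others 19.1 to 22.9). In control hypothalamus, Eif4enif1 was at 7.10 FPKM in replicate 2 and at 5.54 to 5.74 in the others.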

How the results depend on the processing

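Under every alternative tried, 0 members passed an adjusted p of 0.05 in either region or for the difference between regions. The hippocampus count over all loci was 0 to 1 when single libraries were left out, with 1 without control replicate 3. The hypothalamus count of 1 became 0 at a mean FPKM of at least 5, 2 with the replicate block, 2 without both replicate 1 libraries, and 0 to 2 when single libraries were left out (2 without control replicate 1, 3 or 4, and 0 without fructose replicate 2 or 3). The region difference passed for 0 to 1 symbols, with 1 without hypothalamus control replicate 3. The replicate block changed no other call; it moved unadjusted calls over all loci from 92 to 203 in hippocampus and from 361 to 759 in hypothalamus. The member median ranged from -0.0846 to 0.0045 in hippocampus and from -0.0686 to 0.072 in hypothalamus. Scaling to equal totals put 40 hypothalamus members above 0 and 14 below, with 66.4% of all loci above 0 and their median at 0.065. A change of sign under some alternative was found for 24 of 35 named members in hippocampus and 19 of 32 in hypothalamus. Eif5b kept its sign in hippocampus, and Eif3c, Eif4ebp1, Eif4ebp2, Eif4enif1 and Eef1g kept theirs in hypothalamus. Eif4ebp1 had an unadjusted p of 0.0178 without fructose replicate 3. With 3 or 4 libraries a group and unknown depth, small differences may have gone undetected.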
